A study of Homo sapiens with 8 samples.

Results

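The 3 genes CXCL9, CXCL10 and CXCL11 encode the interferon-induced ligands of the chemokine receptor CXCR3. They were chosen by symbol, with their response in these libraries already known, and all 3 were found among the 30233 genes of the deposited table. RNA-seq was run on 8 libraries from THP-1, a human monocytic leukaemia line whose labels give a WT genotype. Every culture had been turned into macrophage-like cells with PMA, a phorbol ester, for 24 h at 100 ng/ml, followed by 24 h in medium free of PMA. In 4 libraries, called LPS+3-HPA here, the cells received 100 ng/mL LPS, a bacterial outer-membrane component, together with 5 mM 3-HPA (3-hydroxypropionic acid, a small organic acid). In the other 4, called LPS, they received 100 ng/mL LPS alone. The treatment protocol has both agents given at the same time, whereas the series description speaks of pretreatment, and how long LPS was left on is not given here. Both groups carry LPS, so each difference lies between stimulated states of 1 cell line. Nothing in the labels says that the libraries came from separate cultures, so errors and p-values describe the spread among the 8 libraries alone, and that spread may be technical.

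CXCL9, CXCL10 and CXCL11 are small secreted CXC chemokines that draw activated T cells and natural killer cells, which carry CXCR3, into inflamed tissue. In macrophages LPS acts through TLR4 and its adaptor TICAM1 (TRIF) to induce interferon-β, which signals back on the cells through factors that include STAT2 and IRF9 at interferon-stimulated response elements (ISRE). CXCL9 is known mainly as a target of interferon-γ, while CXCL10 and CXCL11 also answer type I interferon, and NF-κB takes part at their promoters. The study's title concerns the effect of 3-HPA on inflammatory macrophages.

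The promoters are shown because the 3 genes did not move alike. They are the 250 bases before each gene's start in RefSeq on GRCh38.p14, written 5′ to 3′ on the minus strand, on which all 3 genes lie: CXCL9 at chr4:76007510-76007759, CXCL10 at chr4:76023498-76023747 and CXCL11 at chr4:76036071-76036320. The RefSeq start used for CXCL11 lies inside the longer span that GENCODE 29 gives the gene. Capitals mark matches to the ISRE core (GAAA, NN and GAAA in a row), the GAS core TTCNNNGAA (the interferon-γ activated site), a κB form (GGG, NNTTN and CC in a row), the TATA box TATAAA, each searched on both strands, and the longest run of letters that all 3 promoters share.
CXCL9: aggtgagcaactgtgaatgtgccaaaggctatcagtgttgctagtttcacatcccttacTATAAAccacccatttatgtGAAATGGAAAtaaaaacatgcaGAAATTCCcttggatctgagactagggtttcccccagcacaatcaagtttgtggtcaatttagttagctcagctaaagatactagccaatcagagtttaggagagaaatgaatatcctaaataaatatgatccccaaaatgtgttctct
CXCL10: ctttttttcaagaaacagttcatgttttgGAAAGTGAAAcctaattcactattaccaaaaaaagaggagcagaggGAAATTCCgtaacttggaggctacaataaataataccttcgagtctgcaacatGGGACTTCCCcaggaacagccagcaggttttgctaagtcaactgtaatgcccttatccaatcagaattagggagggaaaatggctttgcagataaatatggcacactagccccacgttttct
CXCL11: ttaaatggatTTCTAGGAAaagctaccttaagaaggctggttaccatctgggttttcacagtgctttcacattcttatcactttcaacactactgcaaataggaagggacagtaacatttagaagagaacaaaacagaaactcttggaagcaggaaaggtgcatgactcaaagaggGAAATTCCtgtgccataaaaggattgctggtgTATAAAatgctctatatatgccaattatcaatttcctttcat
The ISRE core stood once in CXCL9 (bases -171 to -162 from the start) and once in CXCL10 (-221 to -212), and it stands in 3.02% of the 35116 promoters in the RefSeq table. The CXCL11 window held no match to it. The CXCL11 window had the GAS core (-240 to -232), which 6.57% of promoters hold, and the CXCL10 window the κB form (-122 to -113), which 5.07% hold. TATAAA stood at -191 to -186 in CXCL9 and at -42 to -37 in CXCL11, against 10.7% of all promoters. The longest shared run, GAAATTCC, was found after the letters were seen; it stood at -149 to -142 in CXCL9, -175 to -168 in CXCL10 and -74 to -67 in CXCL11, and in 0.9625% of all promoters. No matches overlapped each other. A single κB form was searched, so a window without a match may hold another form. In CXCL10 and CXCL11 the shared run follows the letters GG and reads GGGAAATTCC, which the searched form does not cover. These matches describe letters and not bound sites.

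With 3-HPA, the 3 ligand genes went apart. CXCL10 stood at about 0.507 of its LPS level and CXCL11 at about 0.231, while CXCL9 stood at 1.17 times its LPS level. CXCL10 remained by far the most abundant of them in both groups, and in FPKM the order of CXCL9 and CXCL11 turned round. Levels are given in FPKM (fragments per length of gene and per size of library). The 3 genes can thus be set against each other only as far as the gene lengths used hold. The lengths recovered from the values, 2761 bases for CXCL9 and 1781 for CXCL11, are not those of GENCODE 29. In reads CXCL9 was above CXCL11 in every library of both groups, so their order with LPS rests on these lengths. In bulk RNA, fewer cells expressing a gene and less RNA per cell cannot be told apart.

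CXCL10 (ENSG00000169245; GRCh38 chromosome 4, 76021117 to 76023497, 4 exons in GENCODE 29) encodes IP-10. Its level was 2196, 2188, 2081 and 2165 FPKM in LPS+3-HPA libraries 1 to 4, against 4418, 4262, 4152 and 4202 FPKM in LPS libraries 1 to 4. The highest LPS+3-HPA library lay far below the lowest LPS library, and replicate 3 was the lowest of its group in both groups. The means were 2158 ± 52.8 FPKM with LPS+3-HPA and 4258 ± 115.6 FPKM with LPS (SD, n = 4 each), a difference in log2(FPKM + 1) of -0.98 (SE 0.024). By level it ranked 6th to 8th of all genes in the LPS+3-HPA libraries and 2nd in each LPS library. Behind these values lay 87163 to 103767 reads per LPS+3-HPA library and 187686 to 206687 reads per LPS library.

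CXCL11 (ENSG00000169248; chromosome 4, 76033682 to 76041415, 5 merged exons) encodes I-TAC, the ligand that also binds the scavenging receptor ACKR3. It had 86.7, 90.6, 80.6 and 88.3 FPKM in LPS+3-HPA libraries 1 to 4, against 400.02, 375.3, 357.5 and 365.8 FPKM in LPS libraries 1 to 4. The groups were wide apart, and replicate 3 was again the lowest in each. The means were 86.5 ± 4.27 FPKM with LPS+3-HPA and 374.7 ± 18.4 FPKM with LPS (SD, n = 4 each), a difference in log2(FPKM + 1) of -2.10 (SE 0.043). Its rank by level was 369 to 422 in the LPS+3-HPA libraries and 60 to 72 in the LPS libraries. Reads numbered 5118 to 6511 per LPS+3-HPA library and 24501 to 27589 per LPS library.

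CXCL9 (ENSG00000138755; chromosome 4, 76001275 to 76007488, 4 exons) encodes MIG. It had 366.1, 409.8, 402.2 and 405.9 FPKM in LPS+3-HPA libraries 1 to 4, against 347.9, 348.3, 325.0 and 334.9 FPKM in LPS libraries 1 to 4. Every LPS+3-HPA library was higher than every LPS library, but the gap was narrow, with LPS+3-HPA library 1 only 1.05 times the highest LPS library. The means were 396.0 ± 20.2 FPKM with LPS+3-HPA and 339.02 ± 11.2 FPKM with LPS (SD, n = 4 each), a difference in log2(FPKM + 1) of 0.22 (SE 0.038). Without LPS+3-HPA library 1 that difference was 0.26. It ranked 61st to 73rd by level in the LPS+3-HPA libraries and 76th to 86th in the LPS libraries. Reads numbered 37975 to 45674 per LPS+3-HPA library and 34525 to 39689 per LPS library.

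**Figure D1:**
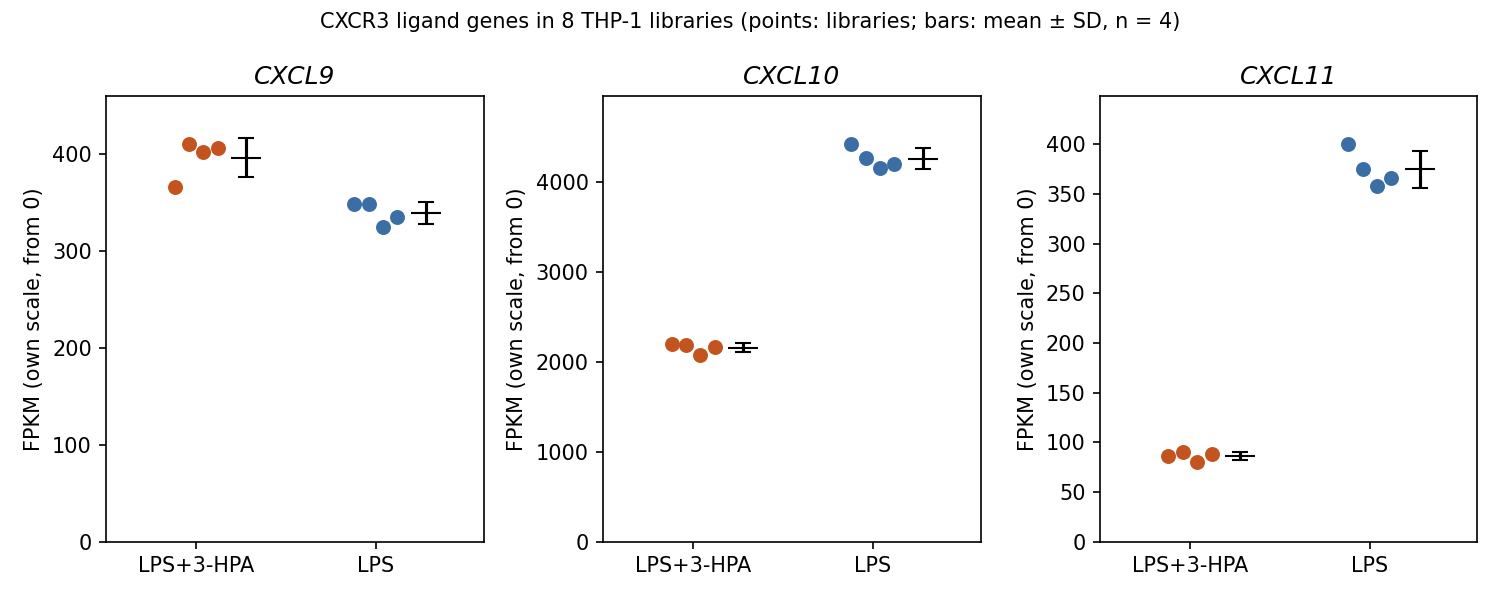
FPKM of CXCL9, CXCL10 and CXCL11 (y axes from 0, each gene on its own scale) in the LPS+3-HPA and LPS libraries (x axes); points are single libraries and bars the mean ± SD of 4. The LPS+3-HPA points lie above the LPS points for CXCL9 and below them for CXCL10 and CXCL11, with no overlap.

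Across all 12499 genes tested, limma called 5462 (43.7%) at an adjusted p of 0.05, 15.7% of all genes higher and 28% lower with LPS+3-HPA. Library values stood fully apart between the groups in 42.2% of genes, 15.3% higher and 26.9% lower. All 3 ligand genes were called and did not overlap, 1 higher and 2 lower, but they were picked with this contrast in view, so the calls are a description and no p is given for them. Ordered by the fall in log2(FPKM + 1) among the 12499 genes, CXCL11 stood 2nd and CXCL10 51st. CXCL9 stood 1503rd from the largest rise. That scale understates changes of low genes, so an order by ratio of means can differ. Of the genes called, 36.0% were higher as deposited, 50.7% after TMM scaling (trimmed mean of M values) and 46.4% after quantile normalisation. The signs of the 3 ligand genes were the same under every scaling tried.

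Ratios of deposited values within a library are not altered when a library is multiplied by 1 factor, as in TMM scaling or equal totals, although quantile normalisation can alter them (CXCL10 was then at -1.32). CXCL10 over CXCL9 was 6.00, 5.34, 5.17 and 5.33 in LPS+3-HPA libraries 1 to 4, against 12.7, 12.2, 12.8 and 12.5 in LPS libraries 1 to 4. CXCL10 over CXCL11 was 25.3, 24.2, 25.8 and 24.5 in LPS+3-HPA libraries 1 to 4, against 11.04, 11.4, 11.6 and 11.5 in LPS libraries 1 to 4. No ratio overlapped between the groups. CXCL9 over CXCL11 moved most, to 4.58 ± 0.315 in the LPS+3-HPA libraries, against 0.906 ± 0.0252 in the LPS libraries (mean ± SD, n = 4 each). In FPKM, CXCL11 was above CXCL9 in each LPS library, by 1.08 to 1.15 times. CXCL9 was above CXCL11 in each LPS+3-HPA library, by 4.22 to 4.99 times.

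**Figure D2:**
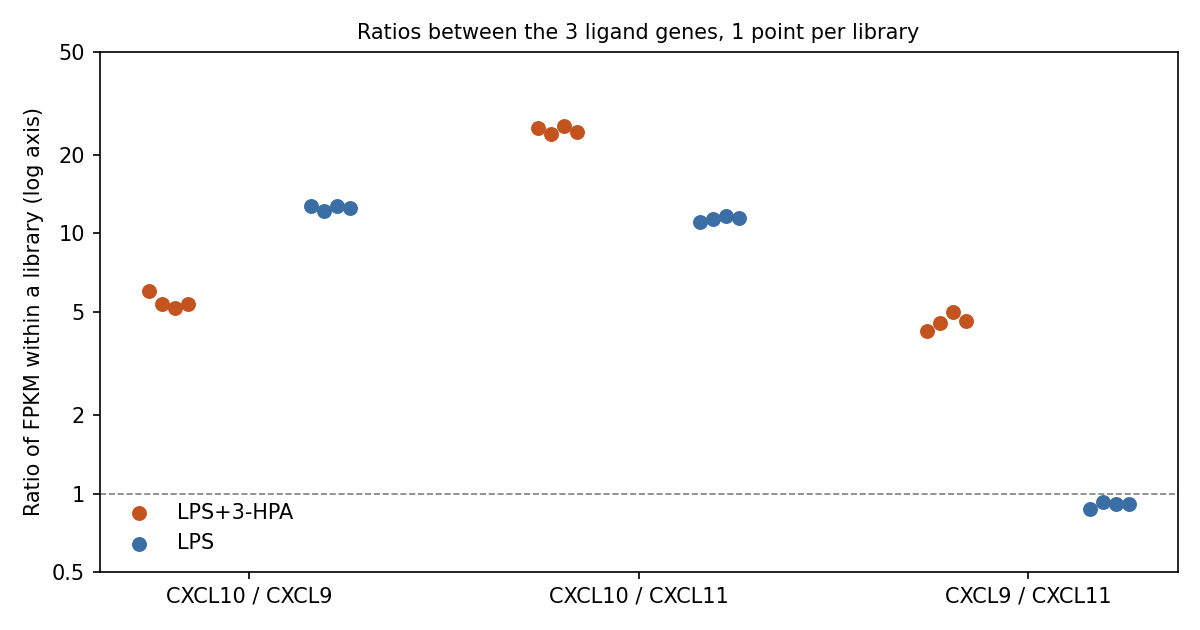
Ratios of FPKM between pairs of ligand genes within each library (y axis, logarithmic), LPS+3-HPA beside LPS; each point is 1 library and the dashed line marks equal levels. CXCL9 over CXCL11 lies at 4.22 to 4.99 with LPS+3-HPA and at 0.870 to 0.928 with LPS, on either side of the line.

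Summed, the 3 transcripts came to 2640 ± 53.6 FPKM with LPS+3-HPA and 4972 ± 143.3 FPKM with LPS (SD, n = 4 each). Their make-up shifted toward CXCL9. CXCL9 made up 15.0 ± 0.816% of the sum with LPS+3-HPA and 6.82 ± 0.122% with LPS. CXCL11 made up 3.28 ± 0.0967% with LPS+3-HPA and 7.53 ± 0.151% with LPS. CXCL10 kept the bulk of it, 81.7 ± 0.80% with LPS+3-HPA and 85.6 ± 0.183% with LPS.

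The receiving side of the axis was scarcely expressed in these cells, apart from ACKR3. CXCR3, the receptor gene, averaged 0.0353 ± 0.0361 FPKM with LPS+3-HPA and 0.0389 ± 0.0620 FPKM with LPS (SD, n = 4 each). It lay below the filter for testing, so no difference could be detected at this depth. DPP4, whose protease trims and inactivates the ligands, averaged 0.143 ± 0.0319 FPKM with LPS+3-HPA and 0.193 ± 0.0227 FPKM with LPS (SD, n = 4 each) and lay below the filter for testing. ACKR3, the scavenging receptor that takes up CXCL11, rose to 14.1 ± 1.29 FPKM with LPS+3-HPA, against 8.35 ± 0.697 FPKM with LPS (log2 difference 0.69, limma adjusted p = 6.03e-05). It was the 1 gene of this list of 5 that could be tested. PF4 and PF4V1, for further CXCR3 ligands, were not analysed here.

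The genes that lead to the induction of the ligands changed in both directions, and no called one fell by as much as CXCL10. Of 22 interferons, receptors, kinases and factors listed, 18 were tested, of which 8 rose and 5 fell, beside 15.7% and 28% of all genes, so that the falls were near the background share. Their median log2 difference was 0.06, beside -0.05 over all genes tested. STAT2, a factor of the type I response, fell to 117.8 ± 0.769 FPKM with LPS+3-HPA, against 150.5 ± 1.35 FPKM with LPS (SD, n = 4 each; log2 difference -0.35, limma adjusted p = 7.41e-08). IRF1, a factor that acts at interferon-γ targets, rose by 0.10 (adjusted p = 0.000842). The receptor genes IFNGR1 (0.19) and IFNAR1 (0.17) rose as well, as did SOCS3 (0.88), an inhibitor of cytokine signalling. The kinase gene JAK2 (-0.40) and the TLR4 adaptor gene TICAM1 (-0.31) fell.

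Of the interferon genes listed, IFNB1 and IFNL1 were near the limit of detection. IFNB1 had 0 to 2 reads per LPS+3-HPA library and 0 to 3 per LPS library, IFNL1 had 0 in each LPS+3-HPA library and at most 1 in an LPS library, and IFNG was not analysed here. IRF9 lay below the filter at 0.406 ± 0.0689 FPKM with LPS+3-HPA and 0.440 ± 0.109 FPKM with LPS. IRF7, which amplifies type I interferon, did not pass the test (log2 difference 0.04, SE 0.231, limma adjusted p = 0.906); its reads ran from 1971 to 4087 in the LPS+3-HPA libraries and from 3002 to 3286 in the LPS libraries. Of 8 NF-κB subunit and kinase genes, 6 fell and 0 rose, beside 28% and 15.7% of all genes, with a median of -0.22. The falls were led by NFKB2 (-0.40), REL (-0.33), RELB (-0.24) and NFKB1 (-0.24). With TMM scaling 5 of the 8 fell and 1 rose.

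Genes known chiefly as type I interferon targets through ISRE were lower almost throughout, as were CXCL10 and CXCL11. Of 24 listed and tested, 23 fell and 0 rose, beside 28% and 15.7% of all genes, and their median was -0.86. IFIT1, a binder of foreign RNA, fell by 1.81, IFIT2 of the same family by 1.6, the ISG15 protease gene USP18 by 1.46 and the exonuclease gene ISG20 by 1.19 (limma adjusted p of 2.35e-08 or less for each). LPS library 1 stood high in IFIT1 and IFIT2. The exception, IFI27, a mitochondrial protein gene named after its value was seen, had a log2 difference of -1.09 with an SE of 0.658 (adjusted p = 0.214). CXCL10, at -0.98, lay within the range of this list, a little below its median, and CXCL11, at -2.10, lay beyond its lowest member.

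Genes known chiefly for induction by interferon-γ had a smaller median difference. Of 16 listed, 11 could be tested. Falls numbered 9 and rises 1, beside 28% and 15.7% of all genes, 1 gene missed the threshold, and the median log2 difference was -0.19. The largest falls were in SERPING1, a complement inhibitor (-0.56), and the guanylate-binding protein genes GBP4 (-0.35) and GBP1 (-0.29). The rise was in SECTM1, a secreted and transmembrane protein gene (0.31, limma adjusted p = 1.04e-05). CXCL9, at 0.22, therefore stood with SECTM1 above the others of this list. TAP1, TAP2, PSMB8, PSMB9 and CIITA were not tested, being below the filter; whether their low values reflect expression or uncounted reads was not tested either. Both target lists were drawn up with earlier results of these data known.

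Other chemokine genes differed in direction among themselves. Of 9 tested CXC chemokine genes outside the CXCR3 ligands, 7 rose and 2 fell, beside 15.7% and 28% of all genes, with a median log2 difference of 0.97. The rises were led by the neutrophil attractant genes CXCL3 (1.5), CXCL1 (1.49), CXCL5 (1.23) and CXCL6 (0.99). The 2 that fell, named after their values were seen, were the B-cell attractant gene CXCL13 (-0.90, limma adjusted p = 6.32e-06) and CXCL12 (-0.35, adjusted p = 0.00268). CXCL12 passed the filter only through the LPS libraries, so it had to differ. CXCL5 was low with LPS, at 0.362 FPKM on average, against 2.19 FPKM with LPS+3-HPA. Of 7 tested CC chemokine genes 4 fell, 0 rose and 3 did not pass, beside 28% lower and 15.7% higher among all genes, and the median was -0.20. Under TMM scaling 3 fell and 1 rose. Without that scaling, those that fell were CCL5 for RANTES (-1.02), CCL8 (-0.65) and CCL2 (-0.38) for monocyte attractants, and CCL7 (-0.20), whose call ended under TMM scaling (adjusted p = 0.065). The difference between the CXC and CC lists was not tested.

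**Figure D3:**
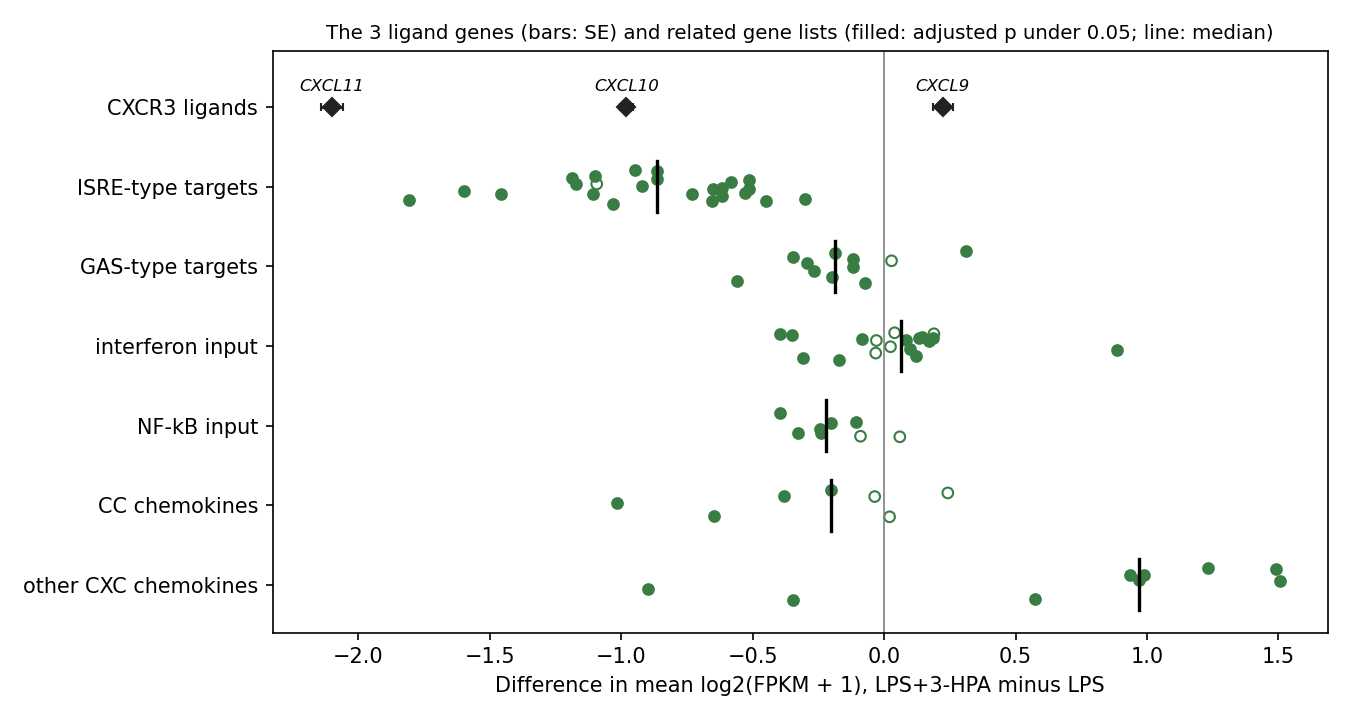
Difference in mean log2(FPKM + 1), LPS+3-HPA minus LPS (x axis), for the 3 ligand genes (diamonds, bars SE) and for tested genes of related lists (circles, filled where the limma adjusted p was under 0.05; black lines are medians). CXCL11 lies left of every ISRE-type target, CXCL10 among them, and CXCL9 to the right of 0.

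The 3 genes lie side by side, within 40.1 kb of chromosome 4. All are on the minus strand, and CXCL10 and CXCL11 lie inside the span of ART3, a gene for an ADP-ribosyltransferase family member on the plus strand, with 0 exonic bases in common in GENCODE 29. CXCL9 overlaps the plus-strand antisense gene SDAD1-AS1 by 4668 bases and CXCL11 overlaps AC112719.1, on its own strand, by 315 bases, again with 0 exonic bases in common. SDAD1-AS1 had 22 to 54 reads per library, and AC112719.1 was not analysed here. ART3 had 8 to 42 reads per library, against 5118 or more for each ligand gene. Their differences were in order of position, from 0.22 for CXCL9 through -0.98 for CXCL10 to -2.10 for CXCL11, over 3 genes only. Of the neighbouring genes, SDAD1 (-0.40, limma adjusted p = 1.35e-05) and SCARB2 (-0.30, adjusted p = 9.42e-07) fell. NAAA (-0.05, adjusted p = 0.548) and NUP54 (0.01, adjusted p = 0.869) did not pass, and PPEF2 and FAM47E had at most 15 reads in any library.

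**Figure D4:**
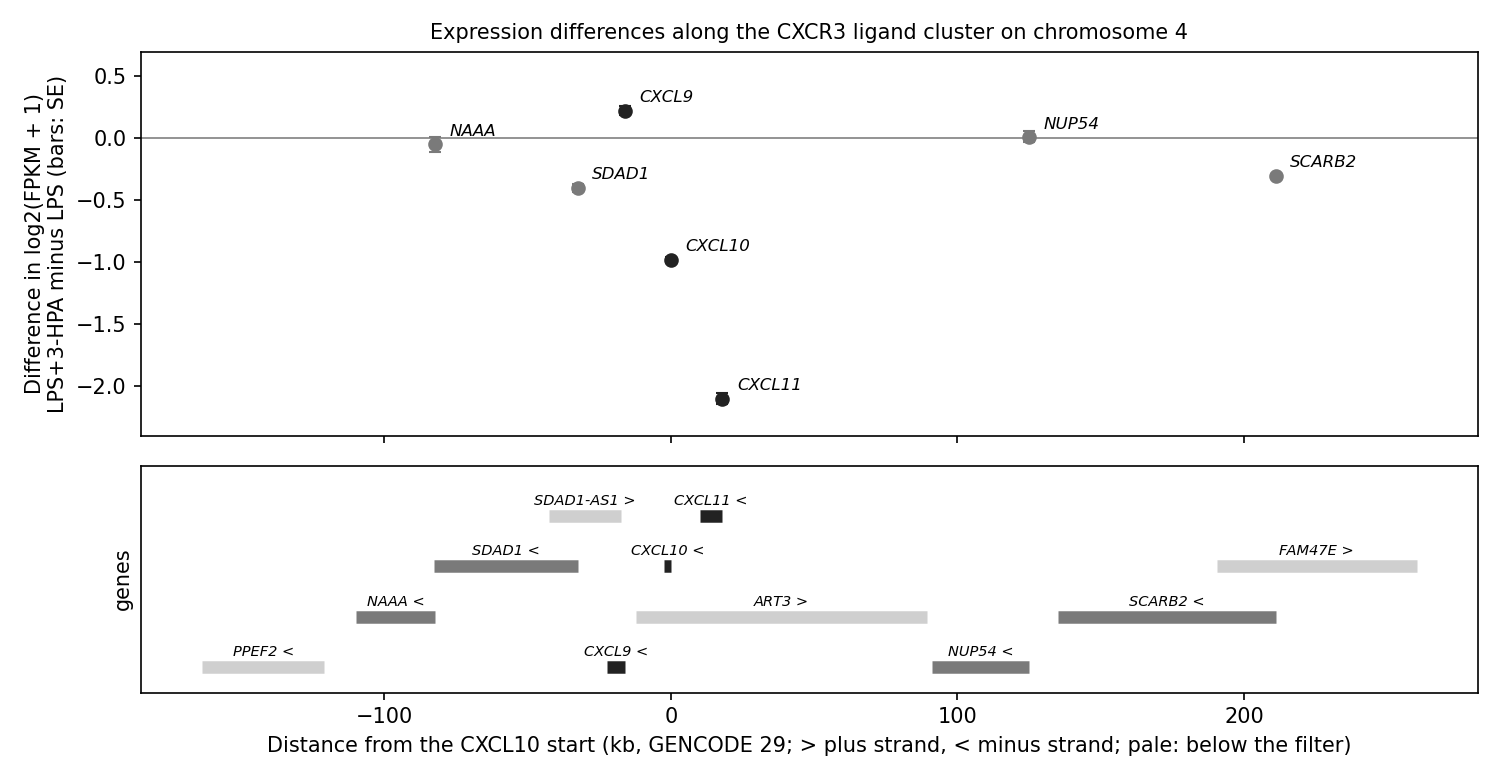
Upper panel, difference in log2(FPKM + 1), LPS+3-HPA minus LPS (y axis, bars SE), of tested genes by distance of their start from that of CXCL10 (x axis, kb); lower panel, the genes to scale, pale where below the filter. CXCL9, CXCL10 and CXCL11 lie at 0.22, -0.98 and -2.10, and the 4 tested neighbours between -0.40 and 0.01.

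Genes with the most similar profile over the 8 libraries differed for each ligand. Likeness was the root mean square difference in log2(FPKM + 1) after centring each gene on its own mean, among 10383 genes. Nearest to CXCL10 were NCOA7 (0.023), the antiviral factor gene SAMD9 (0.025), UBA7 for the activating enzyme of ISG15 (0.027) and IFIT3 (0.035). SAMD9, for example, averaged 69.3 FPKM with LPS+3-HPA and 133.9 FPKM with LPS. Nearest to CXCL11 were the myeloid nuclear protein gene MNDA (0.053), IFIT1 (0.154), the nucleotidase gene NT5C3A (0.177) and the cytidine deaminase gene APOBEC3A (0.210), so CXCL11 had 1 close match and then a gap. Nearest to CXCL9 were HIPK3 for a protein kinase (0.027), ATRN (0.036), TSPAN17 for a tetraspanin (0.036) and MAST3 for another kinase (0.037). The ligand genes were further from one another than from these genes: the value was 0.561 between CXCL10 and CXCL11, 0.605 between CXCL9 and CXCL10 and 1.16 between CXCL9 and CXCL11. These profiles are dominated by the difference between 2 groups, so likeness says mostly that genes moved by a similar amount.

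The libraries were alike in depth, with totals of 35647756 to 40362671 reads with LPS+3-HPA and 37509810 to 41859879 with LPS, as recovered from the FPKM values. Of 7 macrophage markers 6 were above the filter, with a summed level of 1368 to 1441 FPKM with LPS+3-HPA and 1080 to 1125 FPKM with LPS. CD68 was the exception, at 0.0689 FPKM with LPS+3-HPA and 0.0666 FPKM with LPS, a low value for a macrophage marker; whether it reflects expression or reads that were not counted was not tested. The part of this marker difference in the ligand values was not tested. Of T-cell markers TRAC alone had values, 13.8 FPKM with LPS+3-HPA and 18.1 FPKM with LPS. The B-cell markers summed to 0.203 to 0.486 FPKM with LPS+3-HPA and 0.358 to 0.497 FPKM with LPS. Of 4 epithelial markers CDH1 alone had values, at most 0.00923 FPKM. The natural killer marker NCR1 and the endothelial marker CDH5 had no values either. Natural killer markers summed to 7.25 to 9.10 FPKM with LPS+3-HPA and 4.26 to 4.79 FPKM with LPS, nearly all of it GNLY. Endothelial markers, nearly all PECAM1, summed to 7.37 to 8.68 FPKM with LPS+3-HPA and 3.76 to 4.34 FPKM with LPS, and fibroblast markers, nearly all COL1A1, to 3.66 to 4.03 FPKM and 1.95 to 2.29 FPKM.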

How the data were processed

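RNA was extracted with TRIzol and libraries were made with a VAHTS Universal V6 kit, per the labels' protocols. The submitters' processing notes name fastp 0.22.0, HISAT2 2.1.0, featureCounts and the build GRCh38; annotation and strand setting are not given in the labels used, so overlapping and antisense genes are uncertain. The values deposited by the authors are FPKM, in 1 table of 8 libraries, and were used unchanged.

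Symbols matched 30221 of 30233 identifiers. Genes with at least 0.5 FPKM in at least 4 libraries were taken as log2(FPKM + 1) into limma 3.58.1 under R 4.3.3 (LPS+3-HPA minus LPS, trended prior variance, two-sided), and p-values were adjusted by Benjamini-Hochberg across every gene tested. This log2 scale understates changes of low genes. Read totals, gene lengths and reads were recovered as the numbers that make the FPKM whole within 0.01 reads (99.987% of genes). FPKM of the 3 ligand genes rest on 5118 reads or more, so counting error is small beside the spread between libraries.

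The members and gene lists were chosen with earlier results of these data known. Genes named from a list are the 4 called genes with the largest change, all genes of a list with under 3 called, fixed pathway genes (STAT2, IRF1, IRF7, IRF9, IFNB1, IFNG, IFNGR1, IFNAR1, CXCR3 and DPP4; 1 other is not reported here) and every neighbour; the 4 most alike genes were taken per ligand. Alternatives were a filter at 1 FPKM or none, other pseudocounts, equal totals, unweighted TMM, quantile normalisation, no trend, a block on replicate number, the omission of single libraries, voom on recovered reads and an adjusted p of 0.01. Promoters are from RefSeq (GRCh38.p14), positions from GENCODE 29, and figures were drawn with matplotlib 3.10.9 under Python 3.11.15.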

Additional observations from a re-analysis of the deposited data

Results flagged for a closer look

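In 5 of 94 groups of 4 libraries looked at, 1 library stood apart from the other three of its group by more than Dixon's critical value for 4 values; chance gives about 1 in 20. None was a value of CXCL9, CXCL10 or CXCL11, or of a ratio between them. LPS library 1 was high in IFIT1 (232.9 FPKM, others 220.5 to 221.5) and in IFIT2 (181.2 FPKM, others 167.9 to 169.4), and it was also the highest LPS library in CXCL10 and CXCL11. LPS+3-HPA library 4 was high in NFKB1 (12.2 FPKM, others 11.7 at most) and in PPEF2 (0.0215 FPKM, the others at 0). LPS+3-HPA library 3 was low in DPP4 (0.0952 FPKM, others 0.155 to 0.163).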

How the results depend on the processing

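The 3 ligand genes kept their sign under all 18 alternatives run on their differences. CXCL11 ranged from -2.14 to -2.04 and CXCL9 from 0.19 to 0.28, within the spread between libraries. CXCL10, with the smallest spread of the 3, moved by more than its spread under TMM scaling (-0.92) and quantile normalisation (-1.32). TMM scaling shifted all 3 genes by a like amount, with CXCL9 then at 0.28 and CXCL11 at -2.04. The cause of the larger move of CXCL10 under quantile normalisation was not tested. Leaving out 1 library gave -0.99 to -0.96 for CXCL10, -2.12 to -2.07 for CXCL11 and 0.20 to 0.26 for CXCL9, and 4880 to 5028 genes called in all. Among list counts, TMM scaling gave 1 rise in the NF-κB list, 1 in the CC chemokine list and 2 in the interferon-γ target list, and voom on recovered reads also gave 2 there. The CXC genes that fell numbered 1 with a filter at 1 FPKM and 1 to 2 when a library was left out. They numbered 1 without LPS library 1, 2, 3 or 4 each. In these cases CXCL12 missed the filter and was not tested. Its call held in each of the 13 alternatives in which it was tested. The remaining list counts stayed within 1.5 times. Libraries of the same number deviated together with correlations of only -0.0231 to 0.0894 across genes, and 1 of 4 LPS+3-HPA libraries was most like the LPS library of its own number, so the numbers were not taken as pairs. With the replicate number as a block 5074 genes were called. Depth limits what can be said of CXCR3 and IFNB1, which averaged at most 0.104 FPKM in either group.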

Other observations

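Some interferon-linked genes varied between libraries of 1 group far more than the ligand genes did. TAP1, for a peptide transporter of antigen presentation, had 39 to 117 reads in the LPS+3-HPA libraries and 42 to 8485 reads in the LPS libraries. IFI27 had 358 to 1509 reads in the LPS+3-HPA libraries and 616 to 6807 reads in the LPS libraries. The spread of CXCL10, as SD over mean, was 2.44% with LPS+3-HPA and 2.71% with LPS, that of CXCL11 4.93% and 4.91%, and that of CXCL9 5.10% and 3.31%. CCL3 and CCL4, for chemokines that LPS induces in macrophages, had 0 to 3 and 1 to 4 reads in the LPS+3-HPA libraries, and 0 and 0 to 4 in the LPS libraries; whether these low values reflect expression or reads that were not counted was not tested. TAP1, IFI27, CCL3 and CCL4 were named here after their values were seen.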
